A study of Mus musculus with 9 samples.

Results

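The enzymes that make, break down and sense prostaglandins and leukotrienes were examined in mouse activated hepatic stellate cells (aHSCs), the cells that lay down scar in the injured liver. The genes were the prostanoid enzymes Ptgs1, Ptgs2, Ptges, Ptgis, Ptgds and Hpgd, the lipoxygenase genes Alox5, Alox5ap and Alox15, and the prostaglandin receptor gene Ptger4. All probes that the array annotation gave to these 10 genes were taken, which were 18 of the 45281 gene probes. Of the 18 probes, 14 were detected on at least 3 arrays and were tested, among 20573 tested probes in all, and Ptger4 had no tested probe.

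RNA from 9 samples was measured on Illumina MouseWG-6 bead arrays, 1 array per sample and 3 per group. All samples carried the WT1GFP/+ genotype, in which green fluorescent protein (GFP) is placed in 1 copy of the WT1 gene and reports its activity, on the C57/Bl6 strain. GFP-high cells (replicates 1, 8 and 29) and GFP-low cells (replicates 1, 8 and 30) were sorted without culture from livers of adult male mice given repeated intraperitoneal carbon tetrachloride, a toxin that kills hepatocytes. GFP-negative cells (replicates 3, 11 and 14) were sorted after 7 days of activation in culture. The labels call these animals male too, although the methods describe both sexes for culture work. The study's names for the groups were WT1-high, WT1-intermediate and WT1-negative. By the methods, stellate cells for culture came from livers without injury. GFP-negative status, culture, the absence of injury and a separate array export thus coincided, so that these cannot be told apart in any comparison with GFP-negative cells. The GFP-high and GFP-low comparison lay within injured liver. In sorted populations such as these, fewer cells of a type and less RNA per cell cannot be told apart.

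Eicosanoid synthesis starts when phospholipases release arachidonic acid from membranes. The cyclooxygenases encoded by Ptgs1 and Ptgs2 turn it into prostaglandin H, which terminal synthases convert to prostaglandin E (Ptges), prostacyclin (Ptgis) or prostaglandin D (Ptgds), and the dehydrogenase encoded by Hpgd inactivates prostaglandins. In the other branch the lipoxygenase encoded by Alox5, helped by the membrane protein encoded by Alox5ap, makes the precursor of all leukotrienes, and Alox15 encodes a further lipoxygenase. Leukotrienes are best known as products of macrophages, neutrophils and mast cells, while prostacyclin and prostaglandin E relax contractile cells.

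Each probe is an oligonucleotide of 50 bases, and the sequences of those on which the results turn are shown 5′ to 3′ as the array annotation gives them. Of these, 4 are given whole and the others by their first 30 bases. The 3 probes of Ptgs1 and 2 of Alox5 are shown because they gave different readings of the same gene, both probes of Ptgs2 because only the first was detected, and the probes of Ptgis, Hpgd and Alox5ap because they carried large differences between groups. The probe of Ptger4 is shown for its base composition.
Ptgs1 ILMN_1224866: cccaacttgaatgtctagaatgtggaattg
Ptgs1 ILMN_1233864: gcagtttttatttaacacttctatgctggt
Ptgs1 ILMN_1239239: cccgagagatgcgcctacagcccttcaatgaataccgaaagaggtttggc
Ptgs2 ILMN_1231600: ctgacccaagcatgttataaagactgacat
Ptgs2 ILMN_2717913: aaggaaaaatgtatgaatatgtgagtgttg
Ptgis ILMN_2724942: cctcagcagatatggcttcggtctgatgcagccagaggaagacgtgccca
Hpgd ILMN_2649199: ttaaatgattcacttcgtgtgtttgcactt
Alox5 ILMN_1221016: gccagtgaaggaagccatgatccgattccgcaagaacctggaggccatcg
Alox5 ILMN_2928453: ctacctcctccaactgacaaggtctttgcc
Alox5ap ILMN_1215791: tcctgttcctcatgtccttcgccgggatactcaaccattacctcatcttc
Ptger4 ILMN_2715903: aacaacctaaaatatattttccaagctata
The probes span a GC content of 16% (Ptger4) to 60.0% (the second Ptges probe). No probes of the same gene shared an overlapping end of 10 or more bases. Where each probe lies within its transcript is not known here.

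Levels are given on the log2 scale after correction for background and normalization, and levels of different probes are not set against each other. A probe is termed detected on an array where its detection p, the share of negative control probes that were brighter, was under 0.05. A probe is termed called where limma's moderated two-sided test gave a Benjamini-Hochberg adjusted p under 0.05 over all 20573 tested probes. Where a group had no detected array, the fold is a lower bound, written as at least, and it was set against the dimmest signal of a detected probe on each array or the probe's own signal, whichever was higher.

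Hpgd, Ptgis, Ptgs2, the first Ptges probe and 1 of 3 Ptgs1 probes were called higher in both groups sorted from injured liver than in the cultured GFP-negative cells, and the tested probes of Alox5 and Alox5ap were called lower. Against GFP-negative cells, 7 of the 14 tested probes were called higher and 4 lower in GFP-high cells, beside 26.5% and 33.1% of all tested probes. In GFP-low cells 5 probes were called higher and 4 lower, beside 24.4% and 33.6%. All 6 calls of the 9 prostanoid enzyme probes in GFP-high cells were rises, as were all 5 in GFP-low cells. Of the 5 lipoxygenase probes, 4 were called lower and Alox15 alone was called higher in GFP-high cells, and 4 were called lower in GFP-low cells. With 59.6% (GFP-high) and 58% (GFP-low) of all tested probes called in either direction, the counts of 11 and 9 of 14 stand beside a high background. The groups did not overlap for 11 and 10 member probes, beside 68.4% and 65.5% of all. The median log2 difference of the members was 0.65 and 0.26, beside -0.10 and -0.14 over all tested probes. All of these calls kept their direction and their side of the threshold in each alternative processing in which the probe was tested.

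**Figure D1:**
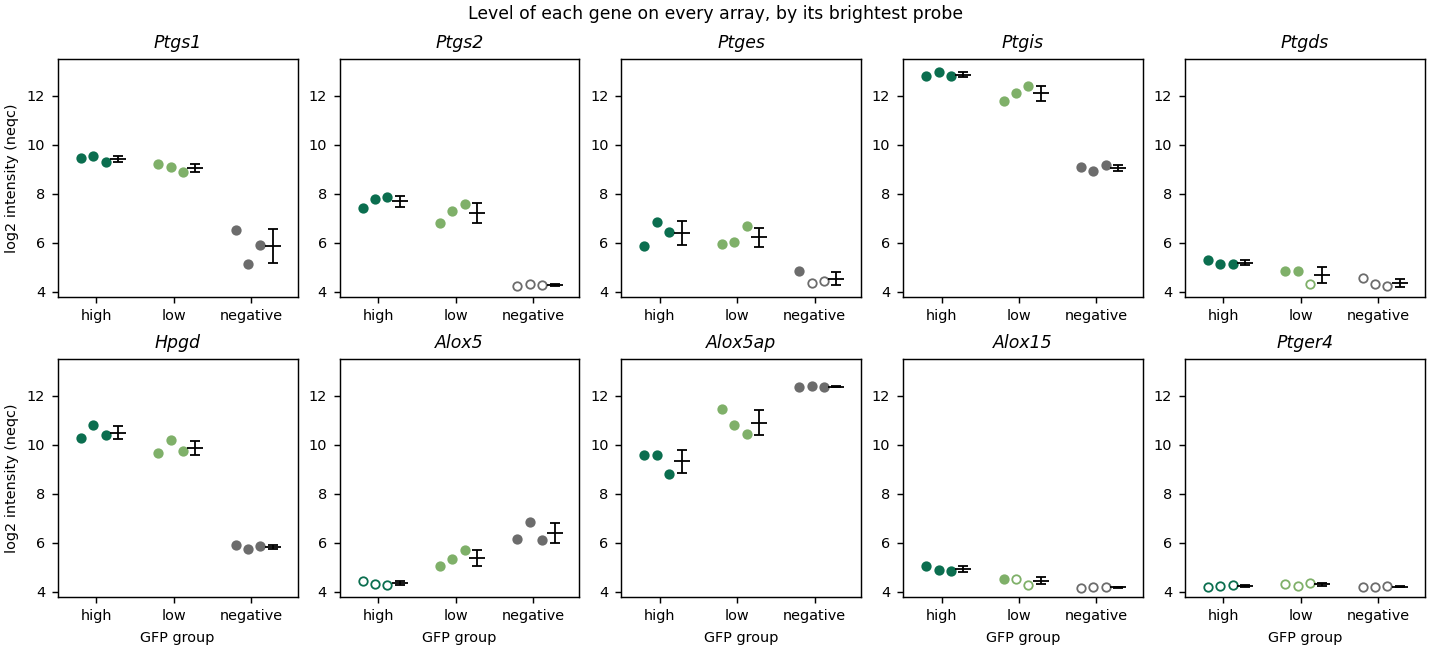
Level of each of the 10 genes on every array (log2 intensity, brightest probe of the gene) in GFP-high, GFP-low and GFP-negative cells. Filled points are arrays on which the probe was detected, open points are not, and the bar beside each group is the mean with its SD (n = 3). Ptgis lies between 12.79 and 12.97 in GFP-high cells and between 8.94 and 9.17 in GFP-negative cells, while Alox5ap runs the other way, from 8.80 to 9.60 in GFP-high cells and from 12.34 to 12.38 in GFP-negative cells.

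Ptgs1 encodes the cyclooxygenase that many cells express without stimulation. Its brightest probe, ILMN_1224866, read 9.48, 9.53 and 9.30 in GFP-high replicates 1, 8 and 29, 9.23, 9.08 and 8.89 in GFP-low replicates 1, 8 and 30, and 6.54, 5.14 and 5.93 in GFP-negative replicates 3, 11 and 14. The cultured cells lay far below both sorted groups and spread the most (SD 0.70). The difference was 3.56 ± 0.28 (SE, n = 3 per group, 11.8-fold, limma adjusted p 1.3e-06) for GFP-high and 3.19 ± 0.28 (9.14-fold, 3.6e-06) for GFP-low cells. GFP-high and GFP-low cells did not overlap, but the difference of 0.37 ± 0.28 was not called (0.55).

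The other Ptgs1 probes did not show this drop, although all 3 cite the same transcript record. ILMN_1239239 read 8.60, 8.53 and 7.50 in GFP-high, 7.59, 8.16 and 7.87 in GFP-low, and 7.77, 8.03 and 7.71 in GFP-negative cells. ILMN_1233864 read 8.38, 8.46 and 7.44 in GFP-high, 7.60, 8.05 and 7.67 in GFP-low, and 7.36, 7.81 and 7.51 in GFP-negative cells. On both, the 3 groups overlapped, and GFP-high replicate 29 lay about 1 log2 unit below replicates 1 and 8. GFP-high minus GFP-negative was 0.37 ± 0.27 (limma adjusted p 0.26) and 0.53 ± 0.26 (0.096). Without GFP-high replicate 29 these differences became 0.73 (0.010) and 0.86 (0.0039), which would be called. For GFP-low minus GFP-negative they gave 0.04 (0.91) and 0.21 (0.49). The level of Ptgs1 in the cultured cells therefore depended on the probe, and which probe reads the whole of the transcript was not tested.

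**Figure D2:**
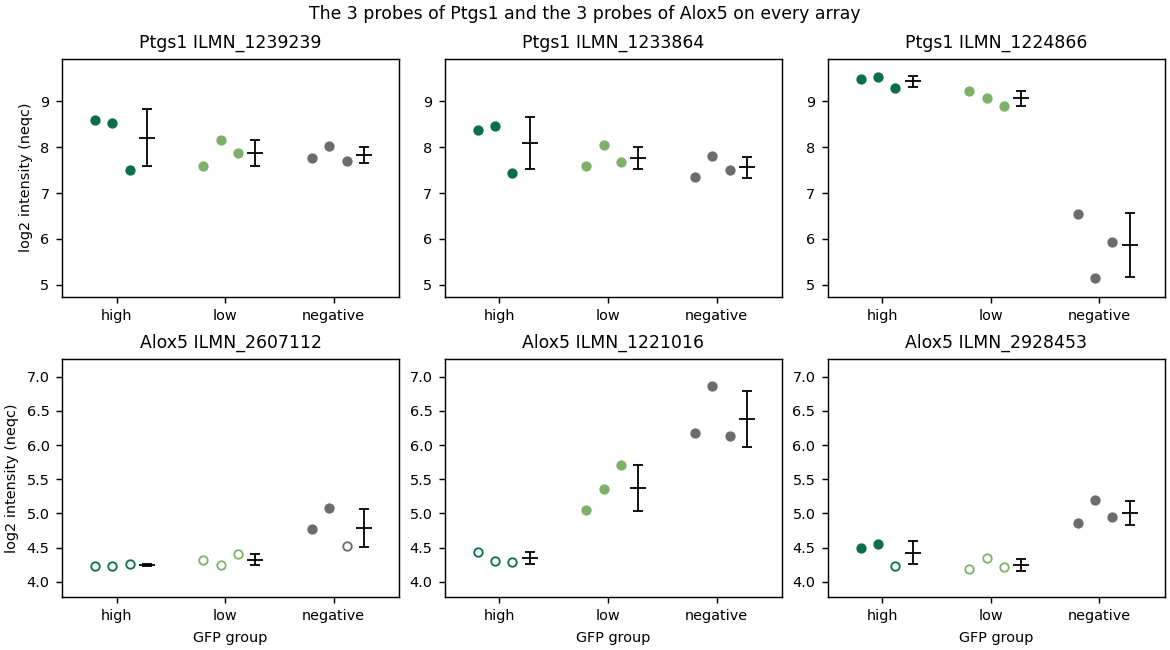
The 3 probes of Ptgs1 (upper row) and of Alox5 (lower row) on every array (log2 intensity), with filled points where the probe was detected, open points where it was not, and bars for the mean and SD (n = 3). Only ILMN_1224866 of Ptgs1 falls in GFP-negative cells (5.14 to 6.54), and only ILMN_1221016 of Alox5 separates GFP-high from GFP-low cells.

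Ptgs2 encodes the cyclooxygenase induced by growth factors and inflammation. Its detected probe, ILMN_1231600, read 7.44, 7.78 and 7.87 in GFP-high cells, 6.80, 7.30 and 7.60 in GFP-low cells, and 4.24, 4.30 and 4.29 in GFP-negative cells. It was detected on all 6 arrays of injured liver and on none of the cultured cells. GFP-high cells were at least 8.52-fold above GFP-negative cells (limma adjusted p 1.4e-07), and GFP-low cells at least 6.20-fold (5.7e-07). GFP-high and GFP-low cells overlapped and differed by 0.46 ± 0.20 (0.28). The second probe, ILMN_2717913, was detected on no array and was not tested.

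Ptges encodes the inducible synthase of prostaglandin E that works downstream of Ptgs2. ILMN_2786442 read 5.88, 6.86 and 6.43 in GFP-high, 5.97, 6.03 and 6.67 in GFP-low, and 4.84, 4.35 and 4.43 in GFP-negative cells, of which only replicate 3 was detected. The sorted groups overlapped each other and both lay above the cultured cells. The difference from GFP-negative cells was 1.85 ± 0.27 for GFP-high (3.61-fold, limma adjusted p 1.2e-04) and 1.68 ± 0.27 for GFP-low cells (3.21-fold, 2.6e-04), and GFP-high minus GFP-low was 0.17 ± 0.27 (0.80). The second probe, ILMN_2616028, stayed between 4.45 and 5.38 on all 9 arrays and was called in no comparison.

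Ptgis encodes the synthase of prostacyclin, which relaxes smooth muscle and restrains platelets. It read 12.82, 12.97 and 12.79 in GFP-high, 11.79, 12.12 and 12.39 in GFP-low, and 9.10, 8.94 and 9.17 in GFP-negative cells. The 3 groups did not overlap and formed a descending order. GFP-high cells were 3.79 ± 0.17 above GFP-negative cells (13.8-fold, limma adjusted p 2e-08), and GFP-low cells 3.03 ± 0.17 (8.18-fold, 1.3e-07). GFP-high exceeded GFP-low cells by 0.76 ± 0.17 (1.69-fold, 0.035), the single rise among the members in that comparison. This call was lost when any of 7 arrays was left out: GFP-high replicates 1, 8 and 29 (0.070, 0.12 and 0.079), GFP-low replicates 1 and 8 (0.13 and 0.065) and GFP-negative replicates 3 and 14 (0.058 and 0.059).

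Ptgds, for the synthase of prostaglandin D best known from brain, was close to background. It read 5.32, 5.12 and 5.14 in GFP-high, 4.86, 4.87 and 4.31 in GFP-low, and 4.56, 4.30 and 4.24 in GFP-negative cells. It was detected on 3, 2 and 0 arrays of these groups. GFP-high cells were at least 1.50-fold above GFP-negative cells (limma adjusted p 0.0023). GFP-low cells were at least 1.05-fold above GFP-negative cells, with no call (0.16), although the test without GFP-low replicate 30 gave 0.024. GFP-high minus GFP-low was 0.51 ± 0.18 (0.17).

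Hpgd, for the enzyme that inactivates prostaglandins, had the greatest difference of the members. It read 10.27, 10.79 and 10.41 in GFP-high, 9.67, 10.19 and 9.75 in GFP-low, and 5.90, 5.76 and 5.86 in GFP-negative cells. GFP-high cells were 4.65 ± 0.19 above GFP-negative cells (25.1-fold, limma adjusted p 8.1e-09) and GFP-low cells 4.03 ± 0.19 (16.3-fold, 3e-08). GFP-high and GFP-low cells did not overlap, but the difference of 0.62 ± 0.19 was not called (0.10). With replicates of the same number as a block, 29 taken with 30, it was called (limma adjusted p 0.015 with a fixed and 0.023 with a random block).

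The rise of these enzymes in sorted cells ran beside that of mesothelial markers, which include keratins and mesothelin. The summed linear level of the 12 mesothelial genes was 37206 to 41865 in GFP-high, 21725 to 29978 in GFP-low and 437 to 533 in GFP-negative cells. All 12 were detected on every sorted array, whereas Krt19, Lrrn4, Gpm6a, Dmkn and Muc16 were detected on no array of the cultured cells. All 17 tested probes of the list were called higher in GFP-high and 15 in GFP-low than in GFP-negative cells. Of all tested probes, 26.5% and 24.4% were called higher in these comparisons. Markers of T and NK cells moved the same way in GFP-high against GFP-negative cells, with 7 of 8 tested probes called higher (median 2.25), as did those of hepatocytes with 5 of 6 (median 1.87). In GFP-low cells these counts were 6 of 8 (median 2.30) and 3 of 6 (median 0.93). The hepatocyte genes Alb and Fgb were detected on no array. Apoa1, Serpina1a, Cyp2e1 and Cps1 were detected on no GFP-negative array. The summed level of the hepatocyte list was 5703 to 8775 in GFP-high, 2992 to 4854 in GFP-low and 3400 to 4847 in GFP-negative cells. Trf was by far the brightest gene in this sum, with means of 12.54, 11.72 and 11.89. The part of RNA from these cell types in the levels of Ptgis, Hpgd, Ptgs1 or Ptgs2 was not tested.

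Alox5 encodes the enzyme that starts leukotriene synthesis. ILMN_1221016 read 4.44, 4.31 and 4.29 in GFP-high, 5.05, 5.35 and 5.71 in GFP-low, and 6.17, 6.86 and 6.13 in GFP-negative cells. It was detected on no GFP-high array and on all arrays of the other groups, which did not overlap. GFP-high cells were at least 3.57-fold below GFP-negative cells (limma adjusted p 1.5e-05) and GFP-low cells 2.02-fold below them (-1.01 ± 0.22, 0.0024). GFP-low cells were at least 1.77-fold above GFP-high cells (0.030), a call lost when GFP-high replicate 1, 8 or 29 (0.060, 0.12 and 0.086) or GFP-low replicate 8 or 30 (0.063 for each) was left out.

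The other Alox5 probes read near background. ILMN_2928453 read 4.50, 4.55 and 4.23 in GFP-high, 4.18, 4.34 and 4.22 in GFP-low, and 4.86, 5.20 and 4.95 in GFP-negative cells, and was detected on 2, 0 and 3 arrays. It was called lower in GFP-high than in GFP-negative cells (-0.58 ± 0.15, limma adjusted p 0.0073), and GFP-low cells were at least 1.36-fold below GFP-negative cells (0.0015). Between GFP-high and GFP-low cells it was not called (0.62), and no fold is given since the GFP-low cells were at background and the bound lay under 1. ILMN_2607112 was detected on 2 GFP-negative arrays alone and was not tested.

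Alox5ap encodes the protein that presents arachidonic acid to this lipoxygenase. ILMN_2863837 read 9.60, 9.57 and 8.80 in GFP-high, 11.46, 10.81 and 10.46 in GFP-low, and 12.36, 12.38 and 12.34 in GFP-negative cells. ILMN_1215791 read 9.38, 9.39 and 8.53, then 11.32, 10.77 and 10.31, then 12.43, 12.24 and 12.39. On both probes the 3 groups did not overlap, and the cultured cells hardly varied. On the first probe GFP-high minus GFP-negative was -3.04 ± 0.27 (8.22-fold lower, limma adjusted p 2.8e-06), and GFP-low minus GFP-negative was -1.45 ± 0.27 (2.74-fold lower, 7.3e-04). GFP-high minus GFP-low was -1.59 ± 0.27 (3.01-fold lower, 0.0088) on the first probe and -1.70 ± 0.28 (3.24-fold lower, 0.0078) on the second.

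Alox15, for a lipoxygenase found in some resident macrophages and eosinophils, was near background. ILMN_2789023 read 5.07, 4.89 and 4.84 in GFP-high, 4.53, 4.53 and 4.28 in GFP-low, and 4.16, 4.21 and 4.18 in GFP-negative cells, and was detected on 3, 1 and 0 arrays. GFP-high cells were at least 1.26-fold above GFP-negative cells (limma adjusted p 7.6e-04). GFP-low cells, detected on 1 array, were not called against GFP-negative cells (0.13), and no fold is given. GFP-high lay above GFP-low cells without overlap, by 0.49 ± 0.14 (0.087). This was called with the animal block (0.043 fixed and 0.025 random). The second probe, ILMN_2669006, and the Ptger4 probe were detected on no array, which leaves only that neither was measurably above background here.

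Markers of macrophages, a cell type known for leukotriene synthesis, were mixed between GFP-low and GFP-negative cells, although their summed level ran in the order of Alox5ap and Alox5. The summed linear level of 20 macrophage genes was 5988 to 9422 in GFP-high, 19543 to 31904 in GFP-low and 65221 to 70710 in GFP-negative cells. Itgam was detected on no GFP-high array, and Ptprc and Clec4f on no GFP-negative array. Between GFP-high and GFP-low cells 19 of 28 macrophage probes were called lower and none higher (median -1.80), beside 2.64% and 0.904% of all. Between GFP-high and GFP-negative cells 18 were called lower and 3 higher (median -2), beside 33.1% and 26.5% of all. Between GFP-low and GFP-negative cells 9 were called higher and 11 lower (median 0), beside 24.4% and 33.6% of all. Mrc1 (-4.60), Fcgr3 (-2.90), Cd68 (-2.75), C1qc (-2.63), C1qa (-2.60), Itgam (-2.43) and C1qb (-2.40) were among the lower genes. Lyz1 (4.48), Ctss (3.02), Marco (2.37), Vsig4 (1.46), Clec4f (at least 4.99-fold) and Ptprc (at least 4.04-fold) were instead higher in GFP-low cells. Within GFP-low cells the replicates kept the same order for the macrophage sum (31904, 27454 and 19543) and Alox5ap (11.46, 10.81 and 10.46), whereas Alox5 ran in the reverse order. The order was not kept in the other groups. In GFP-high cells the sums were 8741, 9422 and 5988, beside Alox5ap at 9.60, 9.57 and 8.80. In GFP-negative cells they were 65221, 70710 and 68105, beside 12.36, 12.38 and 12.34. The part of macrophage RNA in these results was not tested.

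**Figure D3:**
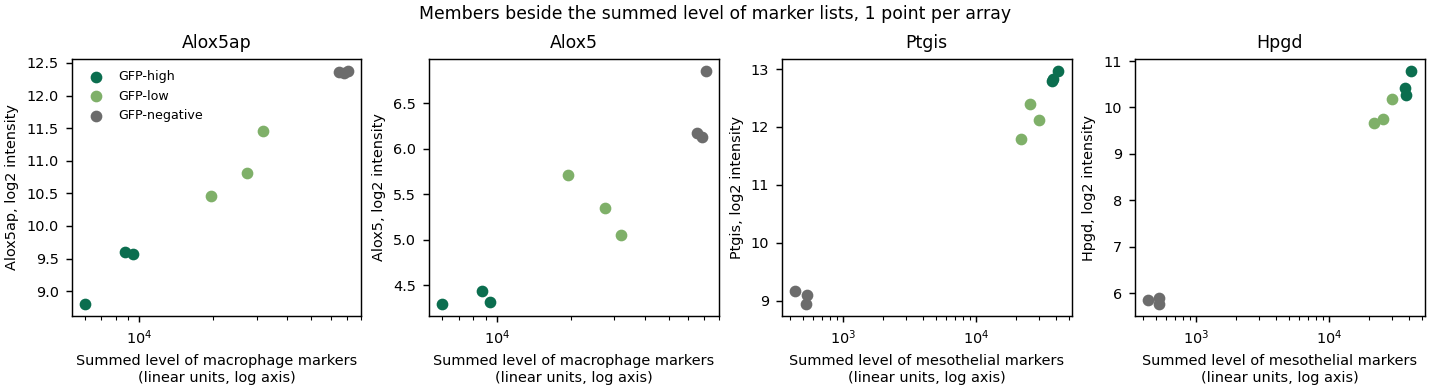
Levels of Alox5ap and Alox5 (log2 intensity) against the summed linear level of 20 macrophage markers, and of Ptgis and Hpgd against that of 12 mesothelial markers (horizontal axis, log scale), with 1 point per array. Macrophage sums run from 5988 in GFP-high to 70710 in GFP-negative cells, and mesothelial sums from 437 in GFP-negative to 41865 in GFP-high cells.

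Lists for other cell types known to make these lipids gave other patterns. The neutrophil list summed to 1209 to 2456 in GFP-high, 1903 to 3084 in GFP-low and 456 to 760 in GFP-negative cells, with S100a8 and S100a9 as its brightest genes. Of its 11 tested probes, 4 were called higher and 2 lower in GFP-high than in GFP-negative cells, beside 26.5% and 33.1% of all. In GFP-low cells 7 were called higher and 1 lower, beside 24.4% and 33.6% of all. Mpo (at least 2.74-fold, limma adjusted p 0.010) and Elane (at least 1.65-fold, 8.2e-04) were lower in GFP-high than in GFP-negative cells. The 3 mast cell genes with a tested probe summed to 95 to 102, 103 to 110 and 135 to 159. Among them Kit had means of 5.75, 5.81 and 6.77. The mast cell genes Cpa3, Mcpt4, Tpsb2 and Fcer1a were detected on no GFP-negative array. Cpa3 and Mcpt4 were also detected on no GFP-high array, and Mcpt4, Tpsb2 and Cma1 on no GFP-low array. The list for peritoneal macrophages summed to 3171 to 5083, 2368 to 3165 and 351 to 518, with Gata6 and Cxcl13 as its brightest genes. Its genes Timd4 (-1.56, limma adjusted p 0.011) and Icam2 (-1.40, 0.0029) were instead lower in GFP-high than in GFP-low cells. Timd4 and Cxcl13 were detected on no GFP-negative array. The endothelial list, for a cell type known for prostacyclin, summed to 1093 to 1451, 1769 to 2251 and 989 to 1306. Its genes Pecam1, Cdh5, Kdr, Tie1 and Emcn had their highest mean in GFP-negative cells. Tek, Stab2, Lyve1, Eng and Clec4g had theirs in GFP-low cells. The part of these cell types in the results was not tested. Of the markers of hepatic stellate cells, the labelled cell type, Des, Pdgfrb, Reln, Acta2, Col1a1, Col1a2, Col3a1 and Vim were detected on every array. Rgs5 was detected on none, Lrat on 1 GFP-high array only, Hand2 on no GFP-negative array and Ngfr on no GFP-low array. The stellate list summed to 9745 to 12914, 7648 to 9707 and 12855 to 14906. Of its 15 tested probes, 3 were called higher and 7 lower than in GFP-negative cells in each sorted group. The shares of all tested probes were those given beside the neutrophil list. In GFP-high cells Acta2 (-1.78) and Col1a1 (-1.40) were among the lower genes and Col1a2 (2.69) and Col3a1 (4.55) among the higher.

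Within injured liver, 4 of the 14 member probes were called between GFP-high and GFP-low cells, 1 higher and 3 lower, beside 0.904% and 2.64% of all tested probes. These were Ptgis, both probes of Alox5ap and 1 probe of Alox5. Over all 14 tested member probes the median difference was 0.33, beside 0.05 over all tested probes. The values of 8 member probes did not overlap between the groups, beside 20.1% of all tested probes. These counts came from the main model, which did not pair replicates. With replicates paired by number as a block (29 taken with 30), 6 member probes were called, Hpgd and Alox15 being added. Of all probes, 1656 (fixed) or 1796 (random) rather than 730 were then called. The 4 calls also depended on the filter and the scaling. None was left when probes without detection were tested too (8 at an unadjusted p under 0.05 by limma, as with the filter). Scaling each array by its median left the Ptgis call (1.25, limma adjusted p 0.018) and ended those of Alox5ap (0.11 and 0.096) and Alox5 (0.059). It added Hpgd (1.32, 0.037) and Ptgs2 (1.10, 0.036). The same scaling moved the median GFP-high minus GFP-low difference of all tested probes to 0.45, and 2631 of them were called.

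**Figure D4:**
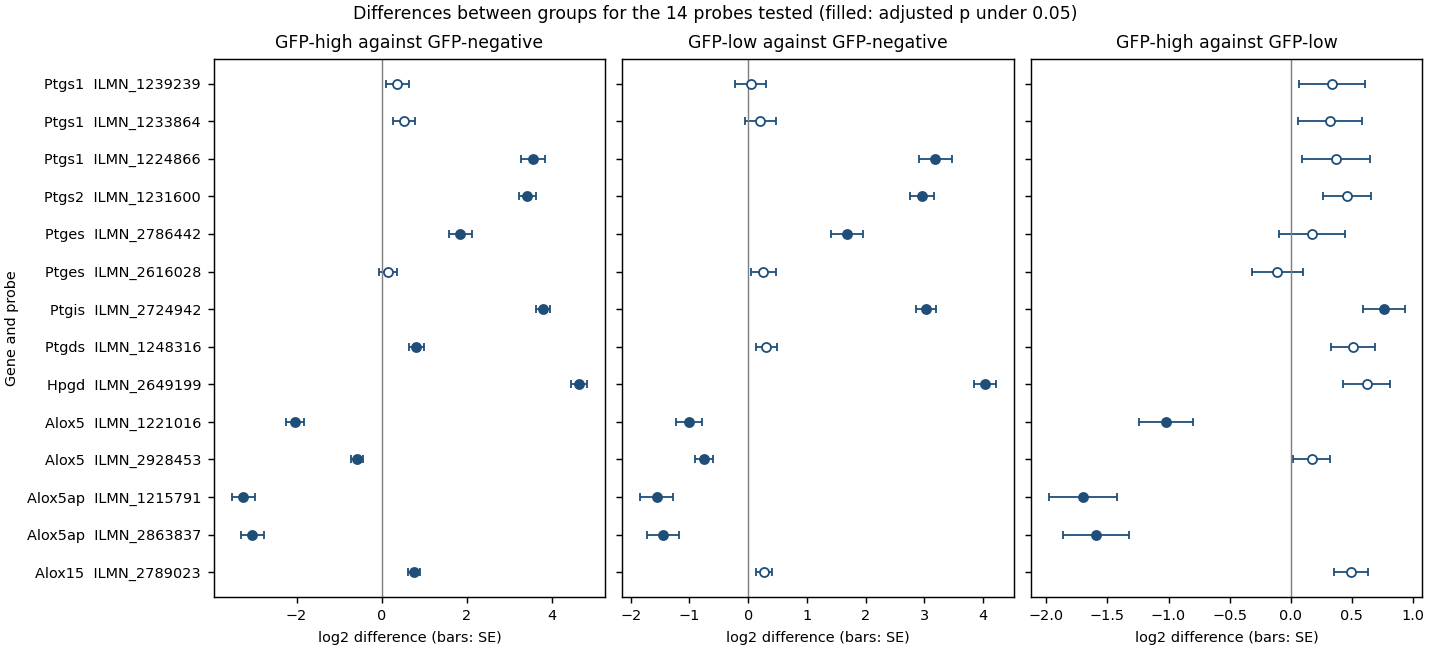
Differences between groups (log2, with SE) for the 14 tested probes in the 3 comparisons, with filled points for an adjusted p under 0.05 (limma, Benjamini-Hochberg) and fitted values also where the text gives a bound. Hpgd at 4.65 and 4.03 and Alox5ap at -3.25 and -1.56 (ILMN_1215791) mark the ends of the comparisons with GFP-negative cells, and the largest difference between GFP-high and GFP-low cells is -1.70.

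The rest of the pathway was described by 49 further genes with 76 probes, of which 47 probes of 33 genes were tested. These genes, like the members, were chosen with earlier results of these data known. Their shares beside those of all probes are therefore descriptions and not tests. Between GFP-high and GFP-low cells 9 probes were called, all lower in GFP-high cells, 19.1% of those tested beside 3.55% of all probes. Dpep1 (-3.41 ± 0.24, limma adjusted p 4.7e-05) and Dpep2 (-2.22 ± 0.28, 0.0019), for dipeptidases that process leukotrienes, were among them. So were Ltc4s, for the synthase that joins glutathione to the leukotriene precursor (-1.90 ± 0.25, 0.0023), and Tbxas1, for thromboxane synthase (-2.34 ± 0.27, 0.0011). Pla2g7, for an enzyme that inactivates platelet-activating factor, gave -1.84 ± 0.40 (0.032).

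Against GFP-negative cells, 35 of these 47 probes were called in GFP-high cells (17 higher and 18 lower) and 30 in GFP-low cells (16 higher and 14 lower), or 74.5% and 63.8%. Over all tested probes 59.6% and 58% were called. Rises in both groups included Mgll, for a lipase that supplies arachidonic acid (3.97 in GFP-high and 3.43 in GFP-low cells, limma adjusted p 1.4e-08 and 5.1e-08). Ptger3, for a receptor of prostaglandin E, was detected on no GFP-negative array and was at least 11.1-fold and 6.88-fold higher. Mgst2, for a microsomal glutathione transferase that can make leukotriene C, rose by 2.50 and 2.68. Slco2a1, for the prostaglandin transporter that feeds breakdown by Hpgd, rose by 2.52 in GFP-high cells and 2.43 in GFP-low cells, and Ptges3, for a co-chaperone with prostaglandin E synthase activity, by 2.17 and 2.12.

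Falls against GFP-negative cells were led by Hpgds, the prostaglandin D synthase of blood cells (-4.21 in GFP-high and -2.97 in GFP-low cells, limma adjusted p 5.9e-08 and 1e-06). Cysltr1, for a receptor of cysteinyl leukotrienes, gave -3.78 and -3.27, and Ltc4s -3.89 and -1.99. Tbxas1 fell by 3.10 and 0.76, while Dpep2 fell by 2.72 in GFP-high cells and was not called in GFP-low cells (-0.50, 0.15). Fam213b, for a prostaglandin F synthase, gave -2.20 in GFP-high and -1.83 in GFP-low cells, and Mgst3 gave -1.35 and -1.66. Dpep1 and the formyl peptide receptor gene Fpr2 were instead higher in GFP-low than in GFP-negative cells, by 2.81 (2.5e-06) and 3.09 (1.8e-04). In GFP-high against GFP-negative cells Fpr2 was also higher (1.84, 0.0052), whereas Dpep1 was lower (-0.61, 0.044). Pla2g4b was the one gene with probes called in opposite directions, -1.51 and 0.45 in GFP-high cells. Lta4h, for the enzyme that makes leukotriene B, was detected on 1 GFP-high array only and was not tested.

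**Figure D5:**
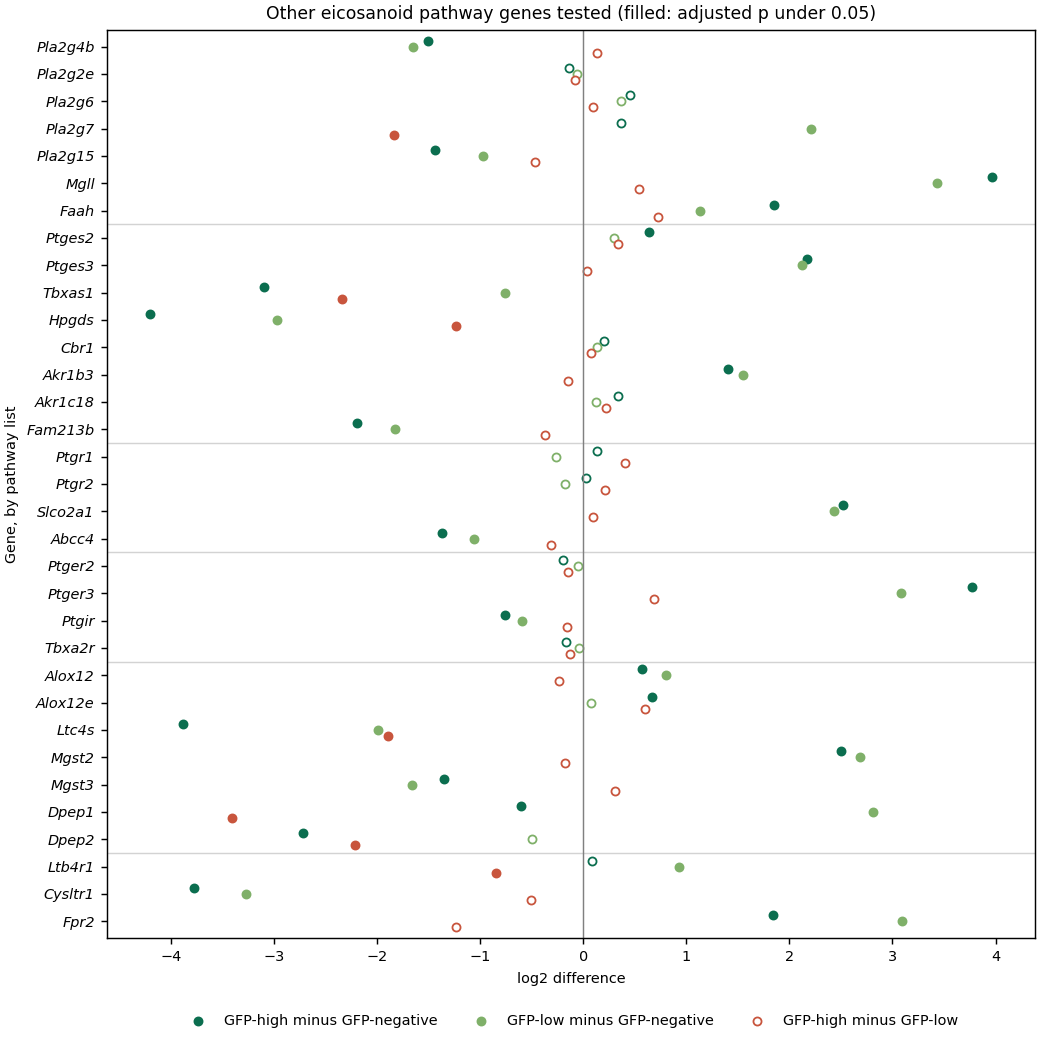
Differences (log2) of the 33 other pathway genes with a tested probe, by the brightest tested probe, in the 3 comparisons. Filled points have an adjusted p under 0.05, and grey lines separate release, synthases, breakdown and transport, prostanoid receptors, leukotriene enzymes and leukotriene receptors, with extremes at Hpgds (-4.21) and Mgll (3.97).

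Probes most like each member over the 9 arrays were found by the root mean square difference of centred log2 levels, among 20573 probes. Ptgis was nearest to Tppp (0.12) and Hpgd to Ppl (0.14). Ptgs2 was nearest to Tmem119 (0.15) and Nbl1 (0.16), and Ptgs1 to Oasl2 and Calm2 (0.22 for both). Alox5ap was nearest to Nckap1l (0.11), while Alox5 had a looser nearest neighbour in Cyp27a1 (0.25). Alox15 and Ptgds, which varied by only 0.92 and 1.08 over the arrays, were near S100a11 (0.07 and 0.12).

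Mean array signals ran from 147.5 to 288.9 with medians of the negative controls from 76.3 to 93.6, and 38.1% to 43.7% of probes were detected per array. Biotin controls were brighter on the arrays of sorted cells (4399 to 4876) than on those of cultured cells (2872 to 3134), and what this adds to comparisons with GFP-negative cells was not tested. No 2 arrays correlated above 0.9912 across probes.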

How the data were processed

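The authors exported probe summaries from BeadStudio, and the deposited values were linear intensities, neither background corrected nor normalized, each with a deposited detection p-value. Intensities of all 9 arrays were corrected with 936 negative control probes, quantile normalized with an offset of 16 and taken to log2 by neqc (limma 3.58.1, R 4.3.3), following the study's outline. Testing was limited to probes whose detection p was under 0.05 on 3 or more arrays, a filter not stated by the study. A linear model with 3 groups was fitted (6 residual and 5.19 prior degrees of freedom). The member and pathway lists were chosen with earlier results of these data known. Named pathway genes were the 5 greatest called rises and falls in each comparison. Array columns carried 29 on 2 arrays, and the GFP-low one was taken as replicate 30 of its label. The study gives 3 injured animals. Deviations from group means correlated at 0.35 (replicates 1), 0.34 (8) and 0.47 (29 with 30), against -0.39 to 0.03 otherwise. These were therefore taken as pairs in the settings with a block of 29 with 30, while the main model had no pairing. List genes were matched to the array annotation by symbol (156), synonym (1) or RefSeq (6), and 4 were not matched. Scripts were tested on simulated data. By the methods, replicates of cultured cells were separate cell isolations.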

Additional observations from a re-analysis of the deposited data

How the results depend on the processing

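All 11 calls of GFP-high and all 9 of GFP-low against GFP-negative cells kept their direction and their side of the threshold, while each of the 4 calls between GFP-high and GFP-low cells was lost in some setting. Testing every probe, detected or not, left 0 member probes called between GFP-high and GFP-low cells. Leaving out 1 array gave 2 to 4, with 2 when GFP-high replicate 1, 8 or 29 was missing. Requiring detection on all 9 arrays, which tests fewer probes, left 5 member probes and 20 pathway probes called in GFP-high against GFP-negative cells, and 5 and 19 in GFP-low against GFP-negative cells. Between GFP-high and GFP-low cells the pathway calls rose from 9 to 16 with median scaling and to 14 with a random replicate block. That scaling moved the median of all tested probes to 0.45 (GFP-high minus GFP-low), -0.07 (GFP-high minus GFP-negative) and -0.44 (GFP-low minus GFP-negative), and called 2631 probes rather than 730 in the first. All-probe calls there were 335 with no filter and 339 with only those groups. They were 1656 with a fixed and 1796 with a random block of 29 with 30. With the replicate block of label numbers alone they were 817, members called were 3, and Alox5 was lost (-0.83, adjusted p 0.14). Member calls were 6 with the block of 29 with 30, and the block changed no member call other than those of Hpgd, Alox15 and, with label numbers, Alox5. Alox5 was also lost with no background correction (-0.34, 0.18) and an offset of 50 (-0.48, 0.14), Ptgis with cyclic loess (0.62, 0.12) and with only the groups compared (0.096). The cause was not tested. Signs turned for small differences that were never called. Ptges ILMN_2616028 between GFP-high and GFP-low cells became 0.14 (median scaling), 0.009 (cyclic loess), 0.12 (label-number block) and 0.15 (without GFP-low replicate 30, the top of a range from -0.33 with 1 array left out), and Ptges ILMN_2786442 became -0.066 without GFP-high replicate 8, the bottom of a range to 0.42. For GFP-low minus GFP-negative, Ptgs1 ILMN_1239239 became -0.68 and ILMN_1233864 -0.49 with median scaling, and the former -0.11 without GFP-low replicate 8 and -0.03 without GFP-negative replicate 14. With 3 arrays per group, precision was limited, and a fold against a group with no detected array was only a bound.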
